A study of Mus musculus with 23 samples.

Results

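Nuclear-encoded genes of oxidative phosphorylation were followed through the hippocampus of FCG mice, bred so that gonads and sex chromosomes are inherited apart. Members were taken by symbol: Nduf for complex I, Sdha to Sdhd for complex II, Uqcr for complex III, Cox4 to Cox8 for complex IV and Atp5 for complex V, without the assembly factors named Ndufaf and Sdhaf. The rule found 80 of the 13766 listed genes, 38 in complex I, 4 in complex II, 8 in complex III, 13 in complex IV and 17 in complex V. Of these, 77 are autosomal and Ndufa1, Ndufb11 and Cox7b lie on the X chromosome. All 80 entered the fit across all genes, 77 were left under a stricter filter of 100 counts, and the lowest estimated count of any member in any library was 14.3. A few symbols sit loosely in their complex. Ndufa4 is now placed in complex IV, and Ndufab1 is also the mitochondrial acyl carrier protein. Cox7a2l is linked to supercomplexes of complexes III and IV, and what its product does in these mice was not tested. Atp5s and Atp5sl are relatives of assembly or coupling factors rather than subunits of the enzyme. Cyc1, the cytochrome c1 subunit of complex III, falls outside the symbol rule. The genes on mitochondrial DNA and the isoform genes Cox4i2, Cox7a1, Cox8b and Cox8c were not analysed here.

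In FCG mice Sry, the gene that directs testis formation, is missing from the Y, and the mice with testes carry it on an autosome. Gonad and presence of Sry thus cannot be told apart. The 23 libraries came from 4 groups, which were XX with ovaries (XXF, 5 mice), XX with testes (XXM, 6), XY with ovaries (XYF, 6) and XY with testes (XYM, 6). All mice were on a C57Bl/6J background, came from stocks revived at the Jackson Laboratory and were about 12 months old. They had been caged by the look of the genitalia, so cage and gonad cannot be told apart. Each library was a separate animal, and replicate numbers only name libraries.

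Complexes I to IV pass electrons from NADH and succinate to oxygen and, except complex II, pump protons across the inner mitochondrial membrane. Complex V, the ATP synthase, lets the protons flow back through a membrane rotor and makes ATP in its F1 head. Neurons depend heavily on this ATP for ion pumping and transmitter release, and most of the subunits are made from nuclear genes and imported.

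Levels are given as CPM, the count of a gene with the library's total scaled to 1000000, and between genes as CPM per kilobase of transcript. Library totals ran from 10257751 to 36078221 estimated counts. Markers of neurons were present in every library, with Camk2a at 3209 CPM or more and Snap25 at 1409 CPM or more. Markers of the choroid plexus, a tissue that borders the hippocampus, varied widely: the 9 measured genes together gave 292 CPM in the lowest library and 5929 CPM in the highest. In whole tissue, fewer cells of a type and less RNA per cell cannot be told apart.

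The members were among the more abundant transcripts of the tissue. Together they made up 1.03% of all counts, and 68 of 80 lay above the 90th percentile of all genes with a transcript length by CPM per kilobase. Complex IV genes had the highest median level, 171 CPM per kilobase, followed by complex V with 152 and complex III with 135. The medians of complex II (90.2) and complex I (86.8) were lower.

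Among the genes placed in complex I by symbol, the highest level per kilobase belonged to Ndufa4, at 303. The lowest belonged to its paralogue Ndufa4l2, known as a hypoxia-induced gene, at 1.98. As Ndufa4 is now placed in complex IV, the values next to these are also given, 178 for Ndufb9 and 10.4 for Ndufab1. Core subunits that carry the electrons lay between. Ndufv1, the NADH-binding subunit, had 97.7 CPM per kilobase, and Ndufs7, which holds the last iron-sulfur cluster, 85.4. Ndufs1, the largest iron-sulfur subunit, had 71.5. In complex II the flavoprotein gene Sdha stood at 161 and the membrane anchor gene Sdhc at 24.2. In complex III the hinge protein gene Uqcrh was highest at 242 and Uqcrq lowest at 44.8.

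Complex IV and complex V each held a wide range. Cox4i1, the general isoform of subunit 4, had the highest complex IV level at 416 CPM per kilobase. Cox6a2, the heart and muscle isoform of subunit 6a, had 4.82, and Cox6b2, the testis isoform of subunit 6b, had 5.05. Per kilobase, Cox6a1 exceeded Cox6a2 by 67.5 ± 16.1 times (SD, n = 23 libraries) and Cox6b1 exceeded Cox6b2 by 58.3 ± 32.6 times. The general isoforms were thus the higher in every library, the lowest ratios being 40.0 and 19.5. Cox7a2 and Cox7a2l differed far less, by 1.29 ± 0.10 times. Among the 3 genes for the rotor subunit c, which encode the same mature protein, Atp5g3 gave 64.6 ± 2.20% of the summed level per kilobase, Atp5g2 gave 25.1 ± 1.86% and Atp5g1 gave 10.3 ± 0.67%. The order of Atp5g2 and Atp5g1 rests on the transcript lengths used, 731 and 2655.5 bases. In plain CPM Atp5g1 was the higher, at 114 against 76.4. Both genes also have near-identical pseudogenes, so these shares are less certain than their SDs. The F1 head genes Atp5b, the catalytic beta subunit, and Atp5a1, the alpha subunit, had 571 and 368 CPM per kilobase, and both together supplied 52.7 ± 1.07% of the complex V counts. The lowest complex V gene was Atp5s at 12.0.

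**Figure D1:**
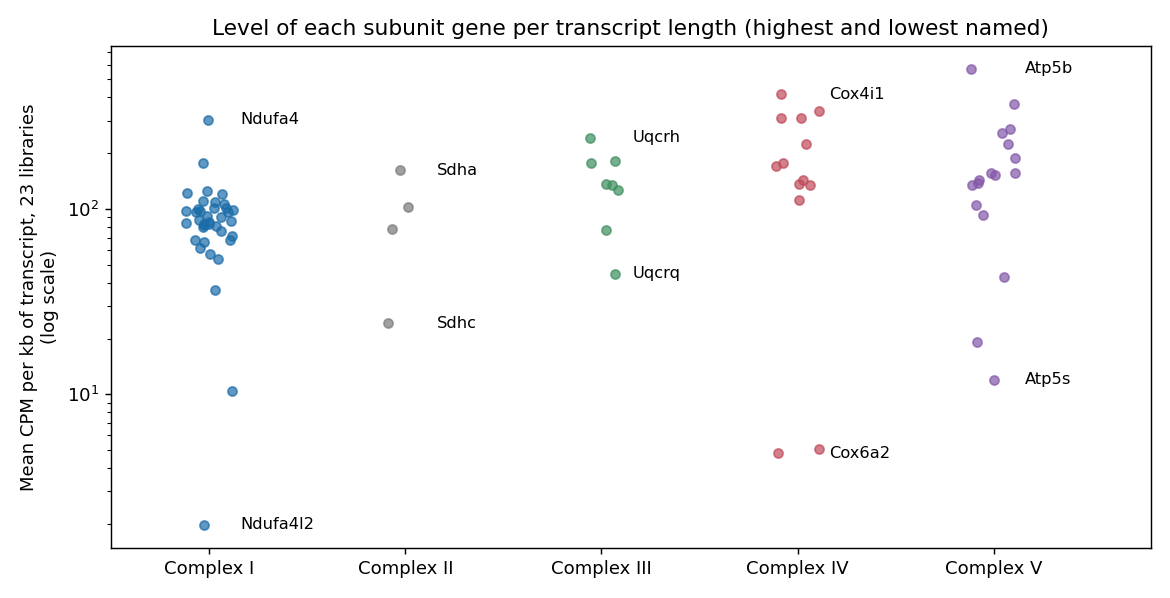
Mean level of each of the 80 genes over 23 libraries, in CPM per kilobase of transcript on a log axis, by complex, with 1 point per gene (horizontal scatter is for display only) and the highest and lowest gene of each complex named. The paralogues Ndufa4l2, Cox6a2 and Cox6b2 are the lowest genes, and Ndufab1, Atp5s, Atp5sl and Sdhc come next.

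Transcripts of 24 members share at least 150 bases at 95% identity or more with another annotated gene, nearly always a processed pseudogene, and 56 share none. Atp5l had the most such copies, with 9, and values of these 24 genes, Cox7b and Ndufb11 among them, are less certain. Atp5e, Atp5d, Ndufs7, Atp5g3, Cox6a1 and Cox6a2 had none.

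Promoters of respiratory genes are known for sites of the nuclear respiratory factors NRF1 and GABP (an ETS factor), of YY1 and of the estrogen-related receptors (ERR). RefSeq promoter windows, 250 bases before to 50 after the start, matched 67 of 80 members. Both strands were searched, and matches of different motifs may overlap. The NRF1 letters, GCGCA and GCGC parted by any base, stood in 25.4% of the member windows, against 10.7% of the 10897 windows of genes in the table and 5.19% of all 27025. The YY1 letters AAGATGGC stood in 16.4% of member windows, against 4.86% and 3.19%. The ETS letters CCGGAAG stood in 23.9%, against 18.2% and 9.93%. TCAAGGTCA, for ERR, stood in 2.99%, which is only 2 member windows (0.349% and 0.466%). TATAAA, the TATA box, stood in 7.46%, or 5 windows (8.77% and 15.7%). A match is a description of letters, not of a bound site.

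To show what such a window looks like, upstream stretches of 3 members are given, 5′ to 3′ on the gene's strand, from RefSeq on GRCm38.p6. They were picked as Cox6a1 for its pair of NRF1 matches, Atp5e for the smallest p of all members and Atp5g3 for its place among the smallest p of the interaction. Capitals mark the motif match, which for Atp5e (ETS) and Atp5g3 (ERR) reads on the opposite strand.
Cox6a1, chr5:115348982-115349129, minus strand: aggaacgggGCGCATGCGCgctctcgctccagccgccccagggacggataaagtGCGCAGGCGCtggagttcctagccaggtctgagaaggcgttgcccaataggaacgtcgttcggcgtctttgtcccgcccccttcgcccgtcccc
Atp5e, chr2:174464106-174464351, minus strand: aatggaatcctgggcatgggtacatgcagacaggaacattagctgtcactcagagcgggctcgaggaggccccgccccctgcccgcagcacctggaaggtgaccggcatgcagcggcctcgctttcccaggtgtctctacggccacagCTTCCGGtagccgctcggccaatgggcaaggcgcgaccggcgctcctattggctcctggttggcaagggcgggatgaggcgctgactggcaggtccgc
Atp5g3, chr2:73911327-73911576, minus strand: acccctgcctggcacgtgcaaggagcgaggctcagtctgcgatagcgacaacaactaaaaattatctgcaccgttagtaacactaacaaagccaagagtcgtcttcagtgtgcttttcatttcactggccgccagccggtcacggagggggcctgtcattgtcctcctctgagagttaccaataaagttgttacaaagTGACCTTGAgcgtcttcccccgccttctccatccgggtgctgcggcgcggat
The matches begin 162 and 117 bases upstream of the start in Cox6a1, 102 in Atp5e and 52 in Atp5g3. Members with the ETS letters had a median gonad effect of -0.11 (16 genes) and members without them -0.08 (51 genes). For NRF1 these medians were -0.08 (17 genes) and -0.09 (50 genes). Neither set of letters marked out members with a different direction.

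Summed over the 80 genes, the level differed little between groups. XXF had 10415 ± 806 CPM (SD, n = 5), XXM 9984 ± 568 (n = 6), XYF 10790 ± 818 (n = 6) and XYM 10019 ± 667 (n = 6). Both groups with testes had lower means than both groups with ovaries, and the libraries of the 4 groups overlapped.

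Complex I summed to 3080 ± 275 CPM in XXF, 2983 ± 204 in XXM, 3232 ± 254 in XYF and 3021 ± 244 in XYM. Complex II, the smallest, had 760 ± 36.3, 756 ± 17.97, 780 ± 44.5 and 736 ± 21.8 in the same order. Complex III had 1013 ± 95.9, 974 ± 52.5, 1043 ± 86.4 and 973 ± 73.7. The XYF mean was the highest in each of these complexes, XXM and XYM had the lower means, and which of the pair was lowest differed between complexes. Complex IV had 1692 ± 177, 1575 ± 121, 1766 ± 143 and 1610 ± 162. Complex V had 3870 ± 241, 3696 ± 187, 3969 ± 305 and 3680 ± 188.

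As a ratio of testes to ovaries, averaged over sex chromosomes, the sums gave 0.951 for complex I, 0.969 for complex II, 0.947 for complex III, 0.921 for complex IV and 0.941 for complex V. On the log2 scale the complex IV difference was -0.12, beside a spread within groups of 0.13 (SD), and the complex V difference was -0.09 beside 0.09. Each of the 5 differences was thus about as large as, or smaller than, the distance between mice of 1 group. The ratios of XY to XX were 1.03 for complex I, 0.9997 for complex II, 1.01 for complex III, 1.03 for complex IV and 1.01 for complex V. No test was made on these sums.

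**Figure D2:**
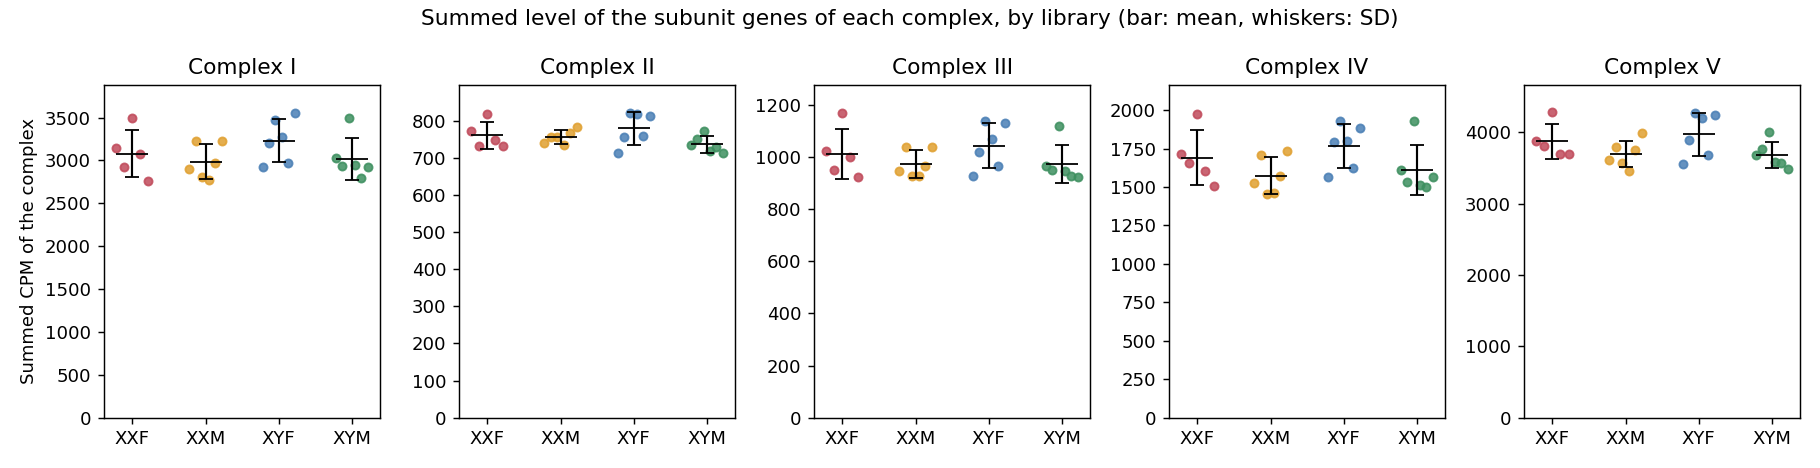
Summed CPM of the genes of each complex in each of the 23 libraries (points), with the mean (bar) and SD (whiskers) of the 4 groups, on axes that start at 0. The groups overlap in all 5 complexes, and XYM replicate 3 stands above the other XYM libraries.

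The same few libraries were the highest or lowest for many members. XYF replicate 6 was the highest of all 23 libraries for 27 members, XXF replicate 3 for 16, XYM replicate 3 for 15 and XYF replicate 3 for 14. XXM replicate 4 was the lowest for 19 members and XXM replicate 3 for 16. The highest libraries thus came from both sex chromosome types and both gonads. The sum over all members spanned 1.25-fold over the 23 libraries. Single genes varied by a median SD of 0.15 on the log2 CPM scale, from 0.06 for Sdha to 0.74 for Cox6b2.

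How gonadal sex bears on the members was read from the gonad effect, the mean of the testes minus ovaries differences in XX and in XY. No member was called at an adjusted p under 0.05 by edgeR (quasi-likelihood, adjusted over the whole table by Benjamini and Hochberg), where 0.16% of all genes, 22 in number, were called (85 without XXF replicate 5). DESeq2 and limma voom with sample quality weights each called 1 member, Atp5e, and limma voom and limma on the deposited log2 values called 0. The log2 fold change was below 0 for 74 of 80 members, against 51% of all genes, with a median of -0.09 against -0.00. An unadjusted p under 0.05 was reached by 22 members (27.5%), all with lower levels in mice with testes, against 13.6% of all genes in either direction and 7.14% in that direction. The count of 22 was 9 (11.2% of members, against 11.4% of all genes) without XXF replicate 3 and 38 (47.5%, against 14.9%) without XYM replicate 3. It was 14 without XXM replicate 1 or 3, and 13 without XYF replicate 3 or 6. These 22 genes had folds from 0.816 to 0.939 and adjusted p from 0.0578 to 0.365. The 80 genes were measured in the same libraries, so their common direction is not 80 separate observations.

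Atp5e encodes the epsilon subunit, a small piece of the central stalk of the F1 head, and lies on chromosome 2, 174461075 to 174464101, on the minus strand (mm10). It was measured at 64.1, 63.7, 65.3, 56.1 and 54.3 CPM in the 5 XXF libraries. In XXM it ranged from 44.7 over a median of 50.2 to 57.7 CPM. In XYF it ranged from 52.6 over 67.4 to 72.7 CPM, and in XYM from 43.9 over 49.1 to 58.7. Most libraries with ovaries thus lay above most libraries with testes, with overlap at the edges. Its gonad effect was -0.29 ± 0.06 (log2, SE), a fold of 0.816, which ranked 23 of 13766 genes by p, with an adjusted p of 0.0578, which missed the threshold of 0.05, by edgeR's quasi-likelihood test. The difference was -0.24 ± 0.09 within XX and -0.34 ± 0.09 within XY. Over single libraries left out, the adjusted p ran from 0.0163 to 0.134, and it was under 0.05 without XXF replicate 4 or 5, XXM 2 or 6, XYF 1 or 5 or XYM 1 or 3.

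Atp5d, on chromosome 10, 80142315 to 80145818, plus strand, encodes the delta subunit of the same central stalk. It stood at 136 ± 3.93 CPM in XXF (n = 5), 125 ± 12.1 in XXM (n = 6), 137 ± 15.7 in XYF (n = 6) and 118 ± 6.06 in XYM (n = 6). In plain CPM every XYM library, 125.02 at most, lay below every XYF library, 125.05 at least, and below every XXF library, 132 at least. Scaled further by the TMM factors of the tests, XYM replicate 3 (123 CPM, factor 0.986) lay above XYF replicate 5 (125.05 CPM, factor 1.01). The separation from XYF thus depends on the scaling. Separation in plain CPM was seen for 0.203% of all genes lower in XYM than XYF and 0.763% lower in XYM than XXF. Among the members only Atp5d separated in either pair. Its gonad effect of -0.17 ± 0.05 had an adjusted p of 0.162 by edgeR's quasi-likelihood test.

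Ndufs7, on chromosome 10, 80249452 to 80256792, plus strand, had the third smallest p. It stood at 69.5 ± 5.04 CPM in XXF, 61.5 ± 6.73 in XXM, 69.5 ± 7.33 in XYF and 59.1 ± 7.65 in XYM. Groups with the same gonad had nearly the same mean, and libraries of all groups overlapped. The gonad effect was -0.20 ± 0.06, with an adjusted p of 0.181 by edgeR's quasi-likelihood test.

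**Figure D3:**
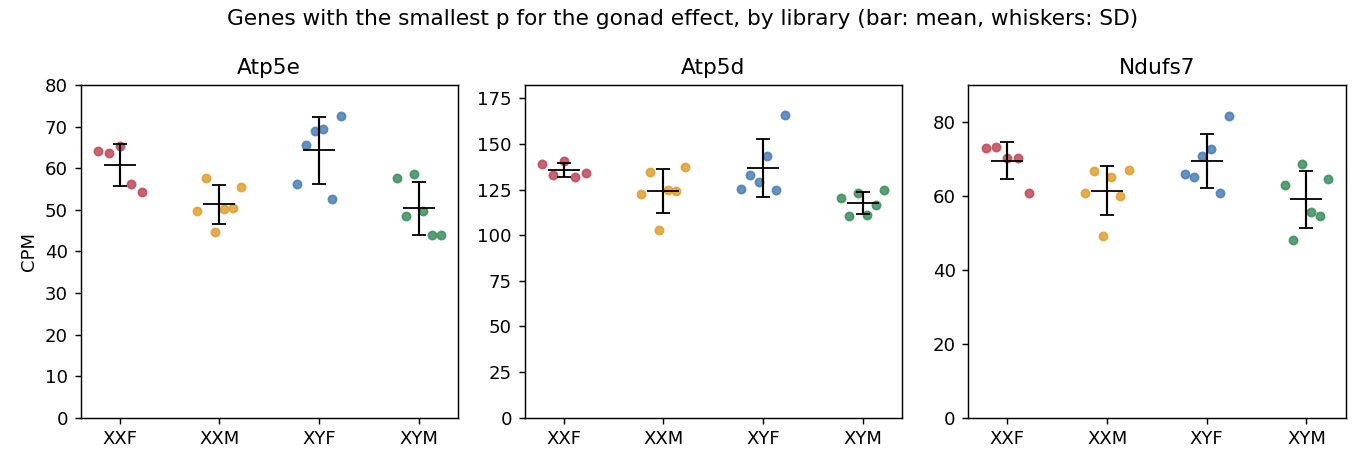
CPM of Atp5e, Atp5d and Ndufs7 in each library (points), with the mean (bar) and SD (whiskers) of the 4 groups, on axes that start at 0. For each gene the XXM and XYM means lie below the XXF and XYF means. For Atp5d every XYM library lies below the lowest XYF library in plain CPM, at the closest by 125.02 against 125.05.

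By complex, the gonad effect had medians of -0.08 in complex I, -0.04 in complex II, -0.09 in complex III, -0.12 in complex IV and -0.07 in complex V. The 22 genes with the smaller p were 8 of complex I, 4 of complex III, 4 of complex IV and 6 of complex V, and none was of complex II. All 17 complex V genes and 12 of 13 complex IV genes were below 0. Among complex I core subunits the effect was -0.06 ± 0.04 for Ndufv1 and 0.05 ± 0.04 for Ndufs1. Sdha, the most abundant complex II gene, was at -0.03 ± 0.03. In complex III, Uqcrq was at -0.19 ± 0.07 and the core protein gene Uqcrc1 at -0.10 ± 0.04, while the other core protein gene Uqcrc2 was at 0.03 ± 0.05, or -0.000826 without XYM replicate 3. In complex IV, Cox8a was at -0.15 ± 0.06 and Cox4i1 at -0.13 ± 0.05. Cox6b2 was at 0.21 ± 0.28, the only complex IV gene above 0, but -0.10 with choroid plexus markers as a covariate, and it lay under 5 CPM in all libraries. In complex V, Atp5k, subunit e of the membrane part, was at -0.23 ± 0.08 and Atp5g3 at -0.14 ± 0.05, against -0.04 ± 0.05 for Atp5g1 and -0.03 ± 0.06 for Atp5g2. The difference between the subunit c genes was not tested.

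**Figure D4:**
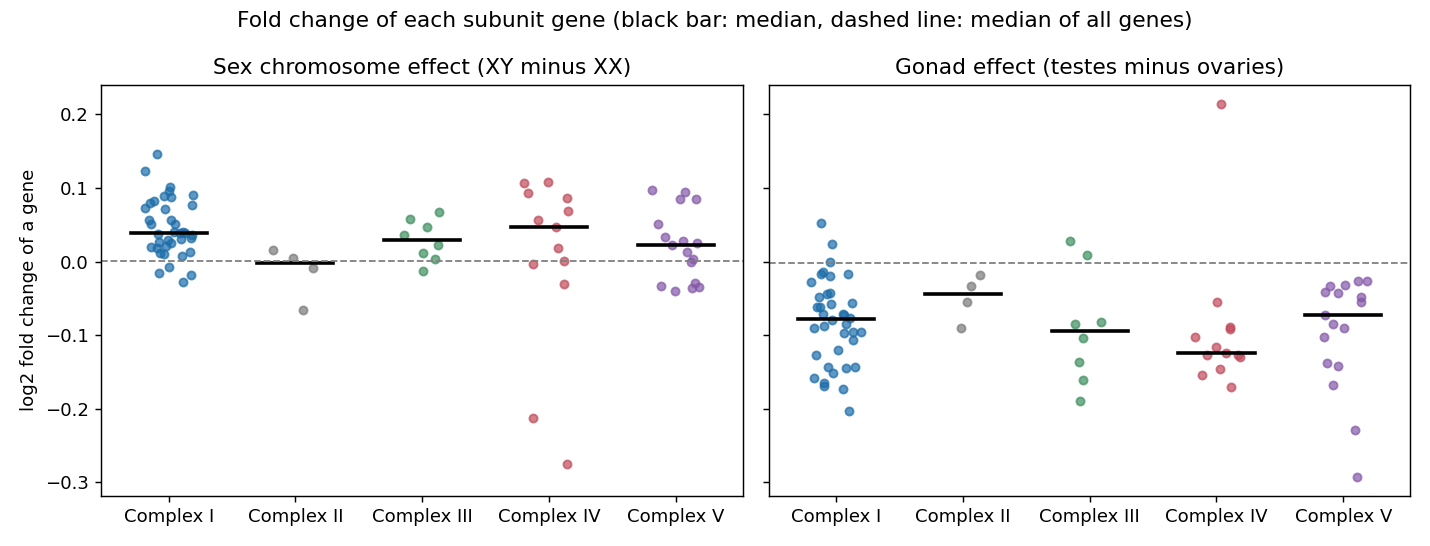
log2 fold change of each member (points, with horizontal scatter for display only) for the sex chromosome effect on the left and the gonad effect on the right, by complex, with the median of the complex (black bar) and of all genes (dashed line). In the gonad panel 74 of 80 points lie below 0, and in the sex chromosome panel 63 of 80 lie above it.

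The direction was shared by both sex chromosome types. The log2 fold change was below 0 in XX and in XY for 65 of 80 members, against 31.5% of all genes. Within XX the median was -0.06, with 69 members below 0 (49.7% of all genes), 0 called (0% of all genes) and 4 at an unadjusted p under 0.05, all lower, where 7.71% of all genes were in either direction and 3.72% lower. Within XY the median was -0.11, with 73 below 0 (52.7%), 0 called (0.225%) and 13 at an unadjusted p under 0.05, all lower, against 8.63% in either direction and 4.66% lower. DESeq2 called 1 member within XY, Atp5e, and 0 within XX.

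The sex chromosome effect, taken as the mean of the XY minus XX differences with either gonad, had smaller values. No member was called by edgeR's quasi-likelihood test (0.283% of all genes were), nor by DESeq2 or limma, and 2 members reached an unadjusted p under 0.05 (6.78% of all genes). That number ran from 0 to 13 over single libraries left out, with 13 without XXF replicate 3, where 6.65% of all genes did, 6 without XXM replicate 6, and 4 without XYF replicate 1 or 5. The log2 fold change was above 0 for 63 of 80, against 50.9% of all genes, with a median of 0.03. The count of 63 rests in part on XYM replicate 3, without which it was 48 and the median 0.01, and on XXF replicate 3, without which it was 69 and the median 0.06. Ndufv3, an accessory subunit at the NADH-binding tip of complex I, was at 52.8 ± 2.58 CPM in XXF, 54.4 ± 4.47 in XXM, 57.5 ± 5.99 in XYF and 57.5 ± 1.77 in XYM. Its effect of 0.10 ± 0.05 had the smallest p of the members, with an adjusted p of 0.691 by edgeR's quasi-likelihood test. Ndufb4, a membrane-arm accessory subunit, followed with 0.15 ± 0.07, and Cox7a2l with 0.11 ± 0.06. Downward, Cox6a2 (-0.21 ± 0.14), Sdhc (-0.07 ± 0.05) and Cox6b2 (-0.27 ± 0.28, or 0.03 with choroid plexus markers as a covariate) had the smallest p.

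Ndufa1, Ndufb11 and Cox7b lie on the X chromosome, of which cells of XX mice silence a copy. Ndufa1, needed for the assembly of complex I, was at 37.8 ± 5.69 CPM in XXF, 36.7 ± 1.90 in XXM, 41.3 ± 2.21 in XYF and 38.5 ± 5.40 in XYM. Ndufb11 was at 88.4 ± 10.4, 82.0 ± 6.91, 94.8 ± 10.9 and 85.4 ± 14.8 CPM in the same order. Cox7b was at 113 ± 17.4, 106 ± 9.19, 119 ± 9.94 and 109 ± 18.1 CPM. In all 3 the mean of the XY group was the higher for each gonad, and the libraries overlapped. With testes this rests on XYM replicate 3. Without it the XYM mean was 79.6 CPM for Ndufb11, 102 CPM for Cox7b and 37.0 CPM for Ndufa1, below the XXM mean for Ndufb11 and Cox7b and close to it for Ndufa1. The sex chromosome effects were 0.10 ± 0.06, 0.08 ± 0.07 and 0.06 ± 0.07, within the range of the autosomal members and with adjusted p from 0.842 to 0.941 by edgeR's quasi-likelihood test. Without XYM replicate 3 they were 0.06 for Ndufa1, 0.03 for Ndufb11 and 0.00657 for Cox7b.

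For the interaction, the gonad effect in XY minus that in XX, 0 members were called by edgeR's quasi-likelihood test (0% of all genes), 0 by DESeq2 and limma, and 0 reached an unadjusted p under 0.05 (3.23% of all genes did). The sign was below 0 for 70 members, against 52.2% of all genes, with a median of -0.04. With a trend of level on transcript length removed, as described below, it was below 0 for 36 members, and the median was 0.00. Cox6a2 had the smallest p, with an effect of 0.54 ± 0.28 and an adjusted p of 0.999. It was measured at 4.02, 4.86, 4.73, 3.95 and 3.07 CPM in XXF. Its means were 3.03 ± 0.82 CPM in XXM, 2.92 ± 0.73 in XYF and 3.16 ± 0.64 in XYM. XXF was the highest group for this gene, and it overlapped the other 3. XY minus XX with ovaries was -0.48 ± 0.20 for Cox6a2, the only member at an unadjusted p under 0.05 in that comparison, where 5.17% of all genes were. Atp5sl (0.15 ± 0.08) and Ndufa4l2 (0.33 ± 0.27) were next upward, and Atp5g3 (-0.16 ± 0.10), Cox5a (-0.17 ± 0.11) and Atp5s (-0.22 ± 0.14) downward.

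In the remaining comparisons edgeR's quasi-likelihood test again called 0 members. In XYM minus XXF, the pair that matches ordinary males and females, 0.131% of all genes were called and 5 members, all lower, reached an unadjusted p under 0.05, where 10.1% of all genes did in either direction and 5.38% lower. In XXM minus XYF, the pair with gonads and chromosomes crossed, 0.501% of all genes were called and 16 members, all lower, reached an unadjusted p under 0.05, where 10% of all genes did in either direction and 5.15% lower. DESeq2 called Atp5e in this pair. XY minus XX with ovaries called 0.291% of all genes, and XY minus XX with testes 0.116%, with 0 members at an unadjusted p under 0.05, where 5.29% of all genes were. In a test of any difference among the 4 groups 0.508% of all genes were called and 7 members reached an unadjusted p under 0.05 (8.95% of all genes did). DESeq2 and limma voom with sample quality weights each called Atp5e there. These comparisons share their groups and are not independent of each other.

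Other genes of the pathway had medians nearer 0 than the members or close to theirs, and none of the lists held a gene called by edgeR's quasi-likelihood test in the gonad, sex chromosome or interaction contrast. Of 37 assembly factors 26 were lower in mice with testes, with a median of -0.04, and Ndufaf3 had the smallest p downward (-0.20 ± 0.07). Of 17 genes of electron carriers and ubiquinone synthesis 12 were lower, with a median of -0.05. The tricarboxylic acid cycle, which feeds electrons to the chain, had 12 of 19 genes lower and a median of -0.02. These medians lay nearer 0 than that of the members. Glycolysis, the other source of ATP, had 16 of 16 genes lower and a median of -0.08, close to the members, with the smallest p at Eno2 (-0.11 ± 0.04). Mitochondrial ribosomal protein genes had 54 of 76 lower and a median of -0.04. The regulators of mitochondrial biogenesis had 7 of 13 genes higher. Esrra, which encodes an ERR, was at -0.14 ± 0.04, and Gabpa at 0.13 ± 0.06. Ppargc1a, the coactivator that drives the program in many tissues, had a sex chromosome effect of -0.09 ± 0.04. At an unadjusted p under 0.05 the gonad contrast held 2 of 37 assembly factors, 3 of 17 carrier and ubiquinone genes, 0 of 19 cycle genes, 4 of 16 glycolytic genes, 7 of 76 mitochondrial ribosomal protein genes and 3 of 13 regulators, against 13.6% of all genes. Of these, 2 carrier and ubiquinone genes and 1 regulator were higher with testes, and the rest were lower.

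The gonad effect moved with transcript length across the whole table. The labels name both an mRNA kit and ribosomal RNA depletion, so how the RNA was enriched is uncertain, and its part in these values was not tested. Members had a median transcript length of 807 bases against 3026 for all genes with a length, and 58 of 80 were among the shortest 10% of genes. Among the other genes of that class the median gonad effect was -0.06, with 73.9% below 0, and in the longest 10% it was 0.06, with 20.9% below 0. The 58 members of the shortest class had a median of -0.10. That class spans 216 to 1300 bases, with a median of 999 among its other genes, and lengths within it were not matched. With a trend of level on length removed within each library, a setting added after the data were seen, 46 of 80 members were below 0, the median was -0.02 and 8 reached an unadjusted p under 0.05, where 11.9% of all genes did. Under this setting Atp5e was at -0.17 with an adjusted p of 0.0761 (edgeR, quasi-likelihood). Medians by complex were then -0.00 in complex I, -0.03 in complex II, -0.04 in complex III, -0.03 in complex IV and -0.03 in complex V. For the sex chromosome effect 45 members were above 0, with a median of 0.01. For the interaction 36 members were below 0, against 50.2% of all genes, with a median of 0.00.

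**Figure D5:**
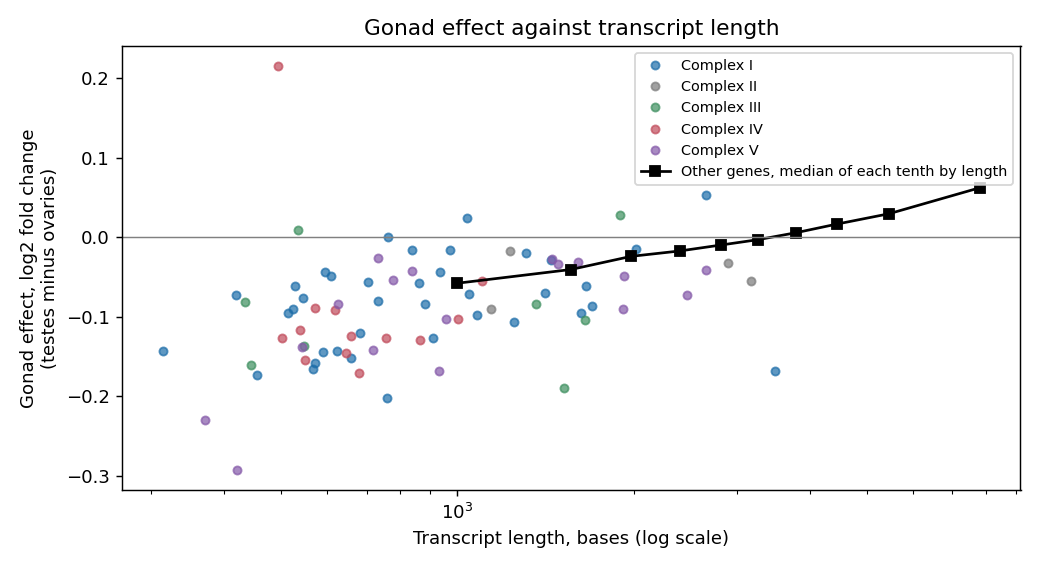
Gonad effect (log2 fold change, testes minus ovaries) of each member against its transcript length on a log axis, coloured by complex, with the median of the other genes in each of 10 equal classes of length (black squares, placed at the median length of the class). The medians climb from -0.06 in the shortest class to 0.06 in the longest, and most members lie at the short end.

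Cytosolic ribosomal proteins, another set of short abundant transcripts taken by symbols that start with Rpl or Rps and added after the data were seen, followed the same course. All 82 had a gonad effect below 0, with a median of -0.11 and 0 called, and 77 had a sex chromosome effect above 0. The 4 libraries with the highest member sums, XXF replicate 3, XYF replicate 3, XYF replicate 6 and XYM replicate 3, were also the 4 highest for the summed ribosomal protein genes.

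Markers of other cells were summed in each library. The 9 choroid plexus markers all had a gonad effect above 0, with a median of 0.67 and 0 called. The sign was not shared: within XX all 9 were above 0 (median 1.55), and within XY all 9 were below 0 (median -0.26). Their sum was 982 CPM on average in XXF (from 292 to 3373 over libraries), 2954 in XXM (409 to 4780), 1294 in XYF (309 to 5929) and 1117 in XYM (313 to 4713). With their mean level as a covariate, 72 of 80 members were below 0, with a median of -0.07 and 12 at an unadjusted p under 0.05, where 11.7% of all genes were. The 3 erythrocyte genes were all lower in mice with testes, with a median of -0.69 and group sums of 112 CPM in XXF (54.0 to 135), 91.9 in XXM (64.4 to 116), 180 in XYF (108 to 253) and 83.4 in XYM (60.5 to 143). In the gonad effect 0 of the 3 were called, but edgeR's quasi-likelihood test called all 3 lower for testes minus ovaries in XY (median -1.08, smallest adjusted p 0.0224) and 2 lower in XXM minus XYF (median -0.95, smallest adjusted p 0.0306). Of 9 microglial genes 7 were lower, with a median of -0.18 and sums of 510 CPM in XXF (481 to 531), 508 in XXM (464 to 541), 571 in XYF (518 to 624) and 489 in XYM (455 to 553). The microglial median was 0.01 within XX and -0.25 within XY. The part of erythrocytes and microglia in the members' values was not tested. The 9 neuronal markers had a median gonad effect of 0.00, and their sums were from 8359 to 9742 CPM over all libraries. Of 8 astrocyte markers 5 were higher with testes (median 0.04). Of 9 oligodendrocyte markers 7 were lower (median -0.02), and of 8 endothelial and mural markers 5 were lower (median -0.02). All 9 oligodendrocyte markers were lower in XY, with a median sex chromosome effect of -0.08 and 0 called.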

How the data were processed

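Hippocampal RNA of 23 mice was read as strand-specific libraries from 500 ng of RNA. The labels' protocols name an mRNA kit and also ribosomal RNA depletion, so the enrichment is uncertain. The authors deposited 1 table of all libraries. It holds estimated counts per gene, called raw per the file headers, which were rounded before testing. The authors' second set, normalized values, was deposited as log2 less a baseline per gene (checked to within 1.09e-06 over 13753 genes), and served for 1 alternative. Per the file headers, a gene needed 20 or more raw counts in 100% of some group's libraries. The build mm10 and DESeq are named in the submitters' processing notes. Aligner, counting program and use of strand: not given in the sources used here. Columns were matched to libraries by animal number, and 0 value columns were left without one.

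CPM scales each library's total to 1000000. Tests used edgeR (version 4.0.16, TMM, quasi-likelihood) in R (version 4.3.3), fitting 1 mean per group to all 13766 genes, and Benjamini-Hochberg adjusted p under 0.05 as the call; tests were 2-sided. Errors of log2 fold changes are the size of the fold change over the root of F. The fit was tested on simulated data, with planted changes larger than any gonad effect of the members. That test thus does not show whether effects of the members' size would be called. Alternatives were DESeq2 (version 1.42.0) and its size factors, limma (version 3.58.1) voom with and without quality weights, limma on the deposited log2 values, a filter of 100 counts, choroid plexus or depth as a covariate, other CPM totals and leaving out each library. The length setting was added after the data were seen. Transcript length is the median over GENCODE vM21 transcripts paired with RefSeq messenger RNAs (13173 genes, 95.7%). Copies were searched with BLAST (version 2.17.0).

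The members and lists were chosen with earlier results of these data known. Named genes are members called, the 3 smallest p in each direction for the sex chromosome, gonad and interaction effects, the highest and lowest level per complex, X-linked members, isoform pairs, core subunits and members with a library far from its group. Of the genes this rule names, 1 is not reported here. For the other lists the rule is the smallest p in each direction, and only some of these genes are named here. Ndufb6 and other members named only in the closing section come from the last rule. Cox6a1 and Atp5g3 promoters, and Atp5k, Uqcrq, Uqcrc1 and Cox8a among the gonad values, were chosen after their values were seen.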

Additional observations from a re-analysis of the deposited data

Results flagged for a closer look

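Within a group of 5 or 6 libraries, the highest or lowest value was set against Dixon's 95% limit. Of 344 such groups of values 33 held a library beyond it, and chance gives about 1 in 20. Most of them were 1 library, XYM replicate 3, which was high in many members at once.

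In that library the summed CPM was 3490 for complex I (next XYM library 3030), 1120 for complex III (968), 1930 for complex IV (1610) and 11300 for all members (10000). Single members at which it stood above the other XYM libraries were in complex I Ndufa12 at 94 CPM (next 86.1), Ndufa6 at 70.9 CPM (next 53.5), Ndufb11 at 114 CPM (next 86.5), Ndufb2 at 47.6 CPM (next 34.9), Ndufb5 at 107 CPM (next 88.4), Ndufb9 at 152 CPM (next 124), Ndufc1 at 43.4 CPM (next 33.3) and Ndufs4 at 74.2 CPM (next 57.3). Outside complex I they were Uqcrfs1 at 123 CPM (next 96.4), Cox5a at 89.7 CPM (next 80.2), Cox6b1 at 162 CPM (next 139), Cox6c at 194 CPM (next 155), Cox7a2 at 145 CPM (next 116), Cox7a2l at 170 CPM (next 150), Cox7b at 144 CPM (next 109), Atp5c1 at 266 CPM (next 217), Atp5j at 141 CPM (next 118) and Atp5l at 148 CPM (next 119). The same library ranked highest of all 23 for the summed cytosolic ribosomal protein genes. Without it 77 of 80 members were lower with testes and 48 of 80 were higher in XY.

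The other libraries beyond the limit were in single members. XXF replicate 3 was the highest of its group for Ndufab1 at 43.4 CPM (next 36.7) and Uqcrfs1 at 126 CPM (next 103). XXF replicate 5 was the highest of its group for Ndufa10 at 134 CPM (next 115). XXF replicate 5 was the lowest of its group for Ndufs7 at 60.9 CPM (next 70.2). XXM replicate 2 was the highest of its group for Cox7b at 123 CPM (next 106). XYF replicate 3 was the highest of its group for Ndufb6 at 59.3 CPM (next 48.8) and Uqcrc2 at 273 CPM (next 243). XYF replicate 6 was the highest of its group for Ndufa10 at 145 CPM (next 113), Ndufb10 at 112 CPM (next 93.2) and Ndufv3 at 69.7 CPM (next 55.5). XYM replicate 1 was the highest of its group for Ndufv3 at 61 CPM (next 57.2).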

How the results depend on the processing

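No paired analysis was possible because the labels carry only an animal number that is unique to each mouse. Over 1759 values recomputed under alternatives, 1665 kept their direction and side of the threshold, or their size. The number of members called for the gonad effect was 0 in the edgeR fit and 1 with DESeq2's size factors, with DESeq2 and with voom quality weights. Leaving out single libraries gave 0 to 1 (8 libraries gave 1: XXF replicates 4 and 5, XXM 2 and 6, XYF 1 and 5, XYM 1 and 3). DESeq2 also gave 1 for testes minus ovaries in XY, 1 for XXM minus XYF and 1 for any difference among groups, as quality weights did for the last (1). Leaving out libraries gave 0 to 1 for XXM minus XYF and for any difference, with 1 only without XYF replicate 5. The gene was Atp5e each time, with adjusted p for the gonad effect from 0.00330 (DESeq2) to 0.204 (depth as a covariate). Removing the length trend moved the members lower with testes from 74 to 46, and the cause was not tested. Leaving out single libraries gave 69 to 77 of 80, a median from -0.06 (without XXF replicate 3) to -0.11 (without XYM replicate 3), and 9 to 38 members at an unadjusted p under 0.05 with the same libraries. Cox6b2 turned sign with the choroid plexus covariate, to 0.0298 for the sex chromosome effect and -0.10 for the gonad effect. Leaving out single libraries gave Uqcrc2 a gonad effect from -0.000826 (without XYM replicate 3) to 0.0529 (without XXF replicate 3). Over all genes, 22 gonad calls became 98 with DESeq2, 76 with quality weights, 42 with the choroid plexus covariate, 13 with depth and 9 under the 100-count filter (77 members kept), and 39 sex chromosome calls became 60, 68 and 63 in the first 3 of these. Leaving out single libraries gave 17 to 85 gonad calls over all genes, with 85 without XXF replicate 5, 49 without XYM replicate 1, 42 without XYF replicate 1 and 34 without XYF replicate 5. Calls for any difference went from 70 to 121 with DESeq2, 152 with quality weights and 41 under the filter. Cox6b2, Cox6a2 and Ndufa4l2, all under 5 CPM, are limited by depth.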
